A study of Mus musculus with 2 samples.

Results

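Parathyroid chief cells, the cells that make parathyroid hormone (PTH), were found in 2 single-cell RNA libraries of mouse vein grafts. Members were the cell barcodes in which Pth, the hormone's gene, took at least 2% of the unique molecular identifiers (UMIs, counts of captured RNA molecules), once barcodes under 500 genes, under 1000 UMIs or above 10% mitochondrial UMIs were set aside. They numbered 165 of 21983 kept barcodes. The conventional library gave 159 of 10458 and the No-Touch library gave 6 of 11525. Both libraries came from C57BL6/J mice 10 to 12 weeks old. In a conventional graft the vein is stripped and moved by itself, and in a No-Touch graft it keeps its surrounding tissue when moved. Grafts of both groups were digested with papain and then also with collagenase I and dispase II, and live cells with a nucleus and no CD45, the leukocyte antigen, were sorted for droplet capture. The labels give all cells the type of vein graft cells and name no gland, no graft site, no sex and no number of animals. Nothing in them says that cells of a library came from more than 1 animal, and each group is 1 library. No test between the groups was therefore possible, and every difference below is a description of these libraries. They give the kit as v2 or v3 chemistry without settling which was used for each library, so kit, library and graft type cannot be told apart.

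Parathyroid chief cells sense blood calcium through the receptor encoded by Casr and release PTH when calcium falls. PTH then raises blood calcium through bone and kidney. The hormone is stored in secretory granules together with chromogranin A, encoded by Chga. The cells descend from pharyngeal pouch endoderm under the transcription factors Gcm2 and Gata3, and in mice the glands lie in the neck, beside or within the thyroid.

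The promoters of the 2 granule genes are shown because their RNA took a large part of the members' UMIs. They are the 250 bases before the start of each RefSeq gene, on GRCm38.p6 (the assembly called mm10), written 5′ to 3′ on the gene's own strand. Capitals in the Pth sequence mark TGACATCA, from position -46 to -39 before the start, which matches the cyclic AMP response motif TGACNTCA, and a TATAAA from -249 to -244. Pth lies on the minus strand at chr7:113388574-113388823 and Chga on the plus strand at chr12:102554691-102554940.
Pth: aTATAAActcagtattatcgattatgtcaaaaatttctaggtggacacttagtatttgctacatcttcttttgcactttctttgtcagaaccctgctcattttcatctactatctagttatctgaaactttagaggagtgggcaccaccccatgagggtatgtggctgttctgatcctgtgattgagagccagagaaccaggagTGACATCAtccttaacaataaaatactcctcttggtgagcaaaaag
Chga: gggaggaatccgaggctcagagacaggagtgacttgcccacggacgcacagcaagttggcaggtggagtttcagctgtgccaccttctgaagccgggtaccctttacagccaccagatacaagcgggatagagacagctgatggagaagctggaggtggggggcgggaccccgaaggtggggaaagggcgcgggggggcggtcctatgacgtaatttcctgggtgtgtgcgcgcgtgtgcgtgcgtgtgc
TGACNTCA was looked for on both strands in the promoters of 24 chief cell genes and stood in 2 of them, Pth and Cldn7, against 8.55% of 27025 mouse promoters of the same length. ATGCGGGT, a form of the site of GCM factors, stood in 0 of the 24 and in 0.226% of all. TATAAA stood in 3 of the 24 (Pth, Myl1 and Bspry) and in 14.3% of all. These are matches of letters and not measured binding.

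The deposited counts held 11899 barcodes with 200851272 UMIs in the conventional library and 12450 barcodes with 373319906 UMIs in the No-Touch library. Kept barcodes other than members had a median of 16689 and 28471 UMIs. The libraries shared 22 barcode sequences, and none of them was a member in either. The conventional library held barcodes with the female transcript Xist and barcodes with Y-linked transcripts, while nearly all No-Touch barcodes with such a transcript had Y-linked ones (10702 of 11519 non-member barcodes with Y-linked UMIs alone, 4 with Xist alone). Intervals below are exact, at 95%, and cover counting error only.

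Chief cells made up 1.52% (1.29 to 1.77, Clopper-Pearson) of the kept conventional barcodes and 0.0521% (0.0191 to 0.113) of the kept No-Touch barcodes, a ratio of 29.2. Conventional members held from 1151 to 53119 UMIs, with a median of 18949 and a median of 4237 genes. The No-Touch members were deeper, from 27543 to 90225 UMIs with a median of 36157 and a median of 6034 genes. Mitochondrial UMIs had a median of 3.85% in conventional and 2.21% in No-Touch members, against 2.32% and 1.7% in the other barcodes. The order of depth between the libraries was thus the same in members as in the other barcodes.

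Pth chose the members, so its levels are a description. It took from 2.88% to 26.7% of a conventional member's UMIs, with a median of 16.6%. In the 6 No-Touch members it took 8.48%, 22%, 22.7%, 16%, 26.9% and 21.9%. Few barcodes lay near the limit. The lowest conventional members had 2.88%, 3.28%, 3.77% and 3.83%, and the highest barcodes outside had 1.22%, 0.898% and 0.883%. In the No-Touch library the highest barcodes outside had 0.861% and 0.273%. A limit of 5% left 155 conventional and all 6 No-Touch members.

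**Figure D1:**
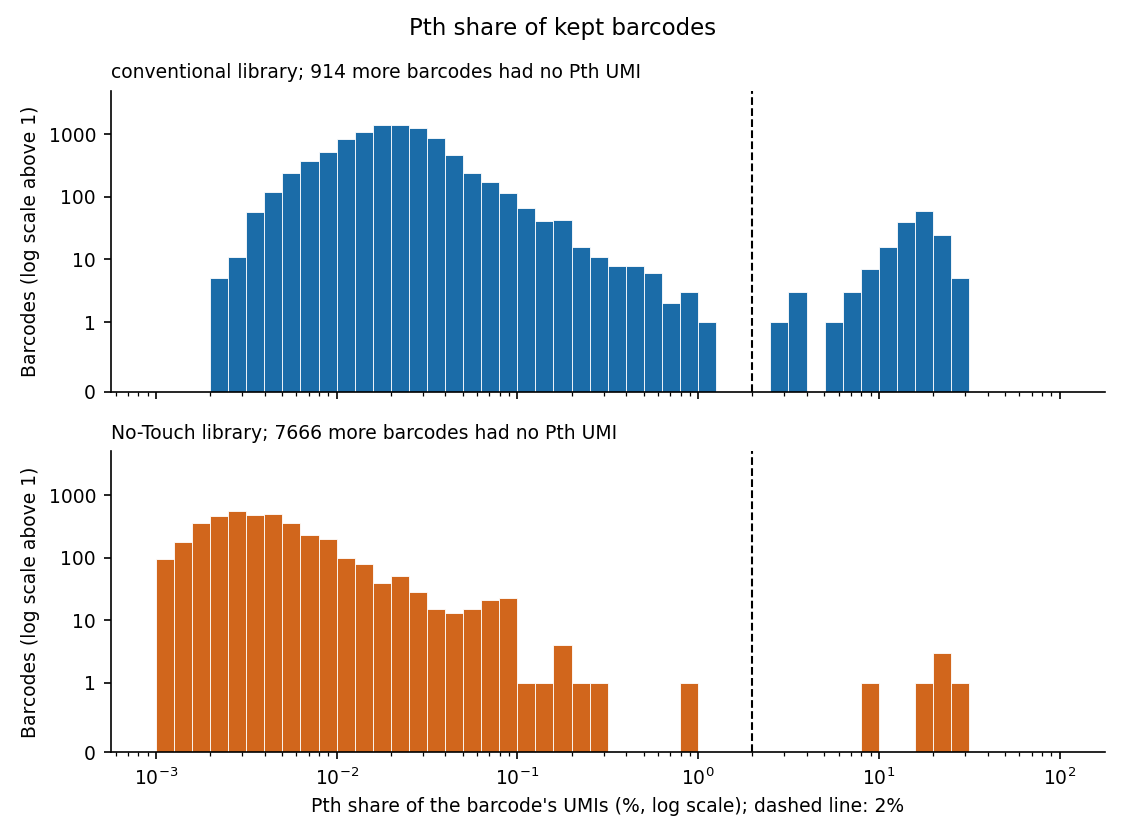
Kept barcodes of each library by the share of their UMIs that is Pth. The conventional members, from 2.88% to 26.7%, stand apart from the other barcodes, whose highest share was 1.22%, and the 6 No-Touch members lie between 8.48% and 26.9%.

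Pth RNA was also counted in barcodes that were not chief cells. In the conventional library 91.1% of the 10299 other barcodes had a Pth UMI, at 2.03 Pth UMIs per 10000, against 1592 per 10000 in members. In the No-Touch library 33.4% of 11519 had one, at 0.142 per 10000 against 1772. The level outside members was 0.127% of the level within them in the conventional library and 0.00802% in the No-Touch library. Members held 93.2% and 90.4% of all kept Pth UMIs. A share of barcodes with a UMI of a gland gene is therefore given below beside its share in the other barcodes. For other genes of the members this fraction in the conventional library was 0.129% for Chga, 0.131% for Spink8, 0.112% for Cryba2, 0.161% for Kl and 0.167% for Casr. It was higher for Gcm2 (0.3%), Epcam (0.45%), Gata3 (0.486%) and Krt8 (0.775%). Over the 75 genes that were at least 10 times higher in conventional members this fraction ran from 0.112% to 9.83% with a median of 2.56%. In the No-Touch library it was 0.0114% for Chga, 0.0101% for Spink8 and 0.00847% for Cryba2, and higher for Gcm2 (0.0243%), Kl (0.0382%), Casr (0.0569%) and Epcam (0.337%).

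The other markers of the cell type were high in members of both libraries. Levels from here on are UMIs summed over barcodes and given per 1000000 UMIs other than Pth (CPM), and a gene is called higher or lower when its CPM + 1 differ at least 2 times. Folds and log2 ratios are also of CPM + 1, which lowers them where a level is near or below 1 CPM. Chga (chr12:102554969-102565028, plus strand) stood at 47734 CPM (47480 to 47988, Poisson) in conventional members against 51.8 in the other barcodes, 904-fold higher, and at 29395 CPM in No-Touch members. Gcm2 (chr13:41101427-41111035, minus strand), the factor without which no parathyroid forms, stood at 145 against 0.366 CPM, and at 108 in No-Touch members. Casr (chr16:36493696-36562141, minus strand) stood at 125 against 0.175 CPM, and at 51.7 in No-Touch members. Chga UMIs were found in every conventional member, Gcm2 in 84.3% and Casr in 85.5%. In the other conventional barcodes, of nearly the same median depth, these shares were 53.2%, 0.651% and 0.33%. With every barcode thinned to 2000 UMIs, which left out 2 members and 265 others, the shares were 100% for Chga, 26.8% for Gcm2 and 26.1% for Casr in members, and 10%, 0.11% and 0.0498% in the others. Of the 6 No-Touch members, 6 had Chga, 6 had Gcm2 and 5 had Casr. Without the 2 No-Touch members rich in fibroblast markers, described below, Chga stood at 46315, Gcm2 at 153 and Casr at 112 CPM.

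Of 3873 genes of at least 50 CPM in either group, 685 (17.7%) were higher and 883 (22.8%) lower in conventional members than in the other conventional barcodes, with a median log2 ratio of 0.09. With Pth kept in the total the split was 429 higher and 1020 lower. Since the members were chosen from the same counts, these ratios are not a test. In the No-Touch library 488 of 3781 (12.9%) were higher and 579 (15.3%) lower, and 235 and 820 with Pth kept in the total. Without the 2 No-Touch members rich in fibroblast markers, described below, those 4 remaining barcodes gave 1311 higher and 1059 lower. For gene lists a minimum of 10 CPM was used. At that minimum 1832 of 9797 genes (18.7%) were higher and 1862 (19%) lower in the conventional library, and 1592 of 9584 (16.6%) and 1637 (17.1%) in the No-Touch library.

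The 25 genes with the highest ratios in conventional members were all higher in No-Touch members as well, by 4.30 to 12.94 on the log2 scale. After Chga came Spink8, a serine protease inhibitor, at 1284 against 1.42 CPM (531-fold). Cryba2, of the crystallin family, stood at 759 against 0.712 CPM (444-fold). For Chga, Spink8 and Cryba2 the level outside members was near the same fraction of that within as for Pth, as given above. Whether RNA of chief cells counted in other barcodes sets these folds was not tested. Kl, which encodes klotho, the co-receptor for FGF23, stood at 495 against 0.671 CPM (297-fold). Myl1, known as a myosin light chain of fast muscle, stood at 878 against 2.28 CPM (268-fold). In No-Touch members these genes stood at 716, 888, 565 and 237 CPM, and at 1289, 1401, 1074 and 327 without the 2 rich members. Bex4 (291 CPM) and Bex1 (371 CPM) encode small proteins of a family known from brain, and stood 219 and 213-fold above the other barcodes. Mt3, a metallothionein, stood at 632 against 2.82 CPM. Tmem37, which resembles a calcium channel subunit, stood at 523 against 2.7 CPM. Npnt, the matrix protein nephronectin, stood at 1444 against 12.1 CPM. The remaining ones were Epcam, Fbxo2, Pkib, Rhcg, Cldn7, Krt8, Gata3, Akr1c13, Krt18, Pcyt1b, Casr, Gcm2, Cldn9, Bspry and Paqr5. By the share of all kept UMIs that fell in members, the genes most like Pth were Cryba2 (93.6%), Chga (92.8%), Spink8 (92.8%), Myh4 (90.6%), Casr (89.5%), Kl (88.7%) and Bex4 (87.7%).

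**Figure D2:**
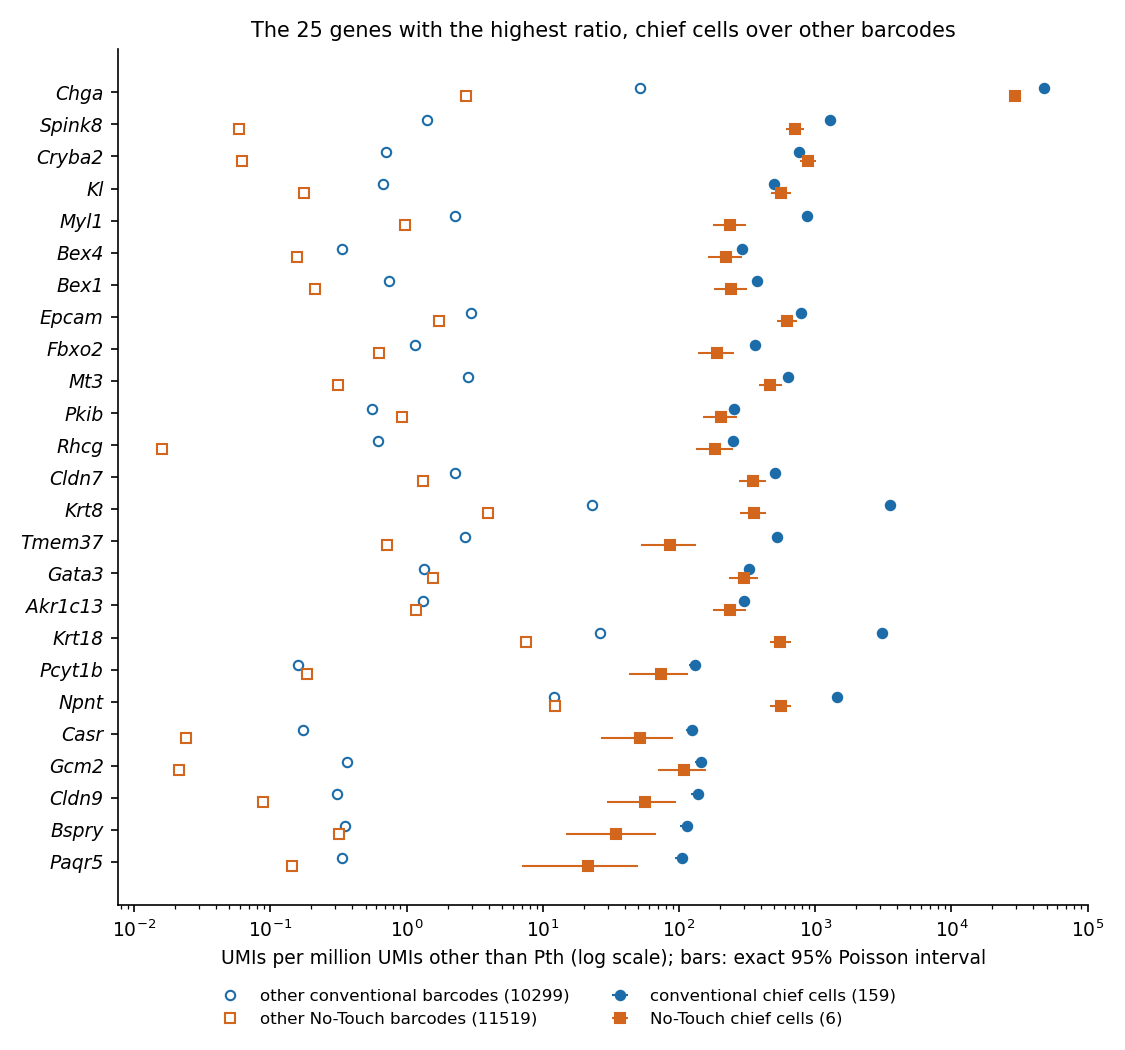
CPM of the 25 genes with the highest ratios, in members and in other barcodes of both libraries, on a log axis. Members lie above the other barcodes for every gene, from Chga (47734 against 51.8 CPM, conventional) to Paqr5 (105 CPM in conventional members).

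Transcription factors of the parathyroid and pharynx were higher in 9 of the 10 listed members past the minimum in both libraries. The median log2 ratios were 4.69 (conventional) and 3.97 (No-Touch, 4.90 without the 2 members rich in fibroblast markers). Gata3, mutated in human hypoparathyroidism with deafness and renal disease, stood at 327 against 1.34 CPM. The pouch factors followed. Pax9 stood at 395 against 9.34 CPM, Six4 at 114 against 12.9, Tbx1 at 103 against 9.02, Eya1 at 78.4 against 2.1 and Pax1 at 62.9 against 1.46. Hoxa3, which sets the identity of the pouch in the embryo, was the exception with 9.49 CPM in members and 15.5 in the other barcodes. No UMI of Sox3 or Isl1 was counted in conventional members. Of 6 Hox genes past the minimum 3 were lower and 0 higher in conventional members, Hoxa5 at 5.27 against 26.3 CPM, Hoxb4 at 9.49 against 42.1 and Hoxd8 at 1.05 against 16.6. In No-Touch members 2 of 8 were lower, and Hoxb4 stood at 34.5 against 49.8 CPM.

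Few granule genes other than Chga were higher. Of 8 granule and prohormone processing genes past the minimum, Chga among them, 2 were higher and 3 lower in conventional members, with a median log2 ratio of -0.58. The other higher gene, Scg5, the 7B2 chaperone of a convertase, stood at 39.7 against 0.15 CPM. The granins and convertases typical of other endocrine cells were at or near 0. Conventional members had no UMI of Scg2, Scg3 or Pcsk1, and 0.351 CPM each of Chgb and Pcsk2. Furin, a convertase of the general secretory route that can cut the PTH precursor, stood at 33 against 41.5 CPM, and Pcsk7 at 9.84 against 14.4. Cpe, a carboxypeptidase of granules, stood at 46 against 72.8 CPM. Pcsk5 (4.57 against 55.2 CPM), Pcsk6 (8.44 against 70.8) and Pam (40.1 against 198), which amidates peptides, were lower. Of 6 exocytosis genes past the minimum 4 were higher and 0 lower, with a median of 1.43. These were the vesicle SNARE Vamp2 (111 against 34.8 CPM), the vesicle GTPases Rab3a (32.7 against 13.6) and Rab27a (16.5 against 2.43), and the vesicle protein Sv2a (20.7 against 0.794). Sv2a was at 0 in the 6 No-Touch members, where 2 of 6 were higher and 2 lower. Without the 2 No-Touch members rich in fibroblast markers 5 of 7 were higher and 1 lower, with a median of 1.67. The neuronal SNARE Snap25 and the calcium sensors Syt1, Syt4 and Syt7 had no UMI in conventional members.

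Of 14 genes of calcium, vitamin D and FGF23 sensing, 3 were higher and 4 lower in conventional members, with a median log2 ratio of -0.19. The 3 higher were receptors, Casr, Kl and Vdr. Vdr, the vitamin D receptor through which calcitriol lowers Pth transcription, stood at 369 against 8.44 CPM (39.2-fold) and had a UMI in 97.5% of members against 10.7% of the other barcodes (53.5% and 1.6% when thinned). The G proteins that Casr couples to were not higher. Gna11 stood at 70.3 against 72.6 CPM and Gnaq at 54.8 against 68.7, while Gnai2 was lower at 216 against 470.4. The scaffold Flna (58 against 148 CPM), the FGF receptor Fgfr1 (93.5 against 249.9) and Ramp1 (3.51 against 25.3) were lower. The vitamin D hydroxylases Cyp27b1 and Cyp24a1 and the calcium binding proteins Calb1 and S100g had no UMI in conventional members. Of 5 proteins that bind Pth mRNA 0 were higher and 1 lower. Of 6 genes known from parathyroid growth and tumours Cdc73, which encodes parafibromin, was higher at 91 against 40.2 CPM. Men1, which encodes menin, stood at 11.2 against 12.6 CPM. The cell cycle inhibitor Cdkn1a (92.8 against 421 CPM) and the receptor Egfr (24.3 against 116 CPM) were lower. Pth1r, the PTH receptor of bone and kidney, stood at 2.81 against 22.9 CPM.

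Genes of epithelial adhesion and keratins were higher in 9 of 10 past the minimum. The medians were 5.97 (conventional) and 5.50 (No-Touch, 6.47 without the 2 members rich in fibroblast markers). Krt8 (chr15:101996698-102004482, minus strand), a keratin of simple epithelia, stood at 3528 CPM (3460 to 3598) against 23. Its partner Krt18 stood at 3120 against 26.1 CPM. The adhesion protein Epcam stood at 788 against 2.99 CPM, with a UMI in 98.7% of members and 1.65% of the other barcodes. Among tight junction genes Cldn7 stood at 503, Cldn3 at 249 and Cldn4 at 211 CPM. Cdh1, which encodes E-cadherin, stood at 176 CPM. The epithelial regulators Esrp1 and Grhl2 stood at 37.6 and 22.1 CPM. Krt7 and Krt19 were at 0.351 CPM each, so the members carried the simple keratin pair without these.

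Genes of protein entry to the endoplasmic reticulum (ER) did not stand apart as a list. Of 27 genes 6 were higher and 2 lower, with a median of 0.14, and the share higher was near the 18.7% of all genes. The 6 included Sec11c (204 against 55.1 CPM) and Spcs1 (303 against 133), subunits of signal peptidase, and Ssr4 (749 against 261), of the translocon. Herpud1, a stress-induced ER protein, stood at 1447 against 330.2 CPM, Creld2, an ER chaperone, at 154 against 64.7, and the stress factor Ddit3 at 1037 against 404. Hspa5, the major ER chaperone, stood at 4796 against 4218 CPM. P4hb, which forms disulphide bonds, was lower at 148 against 325 CPM. In No-Touch members 1 of the 27 was higher and 0 lower, and 3 were higher and 4 lower without the 2 members rich in fibroblast markers. Respiratory chain genes were higher in 13 of 18 and lower in 0, with a median of 1.13, and 7 of 18 in No-Touch members, with a median of 0.94. Without the 2 rich members the No-Touch count was 12 of 18, with a median of 1.21. In conventional members Cox8a stood at 1485 against 477 CPM and Atp5e, a subunit of ATP synthase, at 1177 against 348. The mitochondrial share of UMIs was also above that of the other barcodes, as given above. The part of cell quality in this was not tested. Hypoxia and glycolysis genes gave 1 higher and 5 lower of 10, with Vegfa, which drives vessel growth, at 182 against 58.4 CPM and Ndrg1 at 49.9 against 310.1. Of 3 cell cycle genes past the minimum 0 were higher.

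Immune and inflammatory transcripts were lower. Of 20 interferon response genes 18 were lower and 1 higher in conventional members, with a median log2 ratio of -1.90. Ifi27l2a stood at 53.4 against 391 CPM, Isg15, a ubiquitin-like modifier, at 28.8 against 151, and Iigp1, a GTPase against intracellular pathogens, at 75.6 against 375. The exception was Rsad2, which encodes the antiviral enzyme viperin. It stood at 229.5 against 57.1 CPM and had a UMI in 80.5% of conventional members. MHC class I genes, which are close copies of each other, were lower in 8 of 11 (median -1.34). B2m, their light chain, stood at 344 against 1520 CPM. Of 20 cytokine, chemokine and NF-kappaB genes 13 were lower and 0 higher (median -2.20). The neutrophil attractant Cxcl1 stood at 1238 against 6040 CPM, the monocyte attractant Ccl2 at 433 against 2936, and Saa3, an acute phase protein, at 312 against 3184. The 12 conventional members rich in fibroblast markers move these medians: without them they were -2.38, -1.50 and -2.68. In No-Touch members 9 of 20 interferon genes were lower (median -0.80), 8 of 11 MHC class I genes (-1.23) and 5 of 19 cytokine genes with 1 higher (-0.46). Without the 2 rich members they were lower in 15 of 20 (-2.53), 9 of 11 (-1.71) and 15 of 19 (-2.71).

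**Figure D3:**
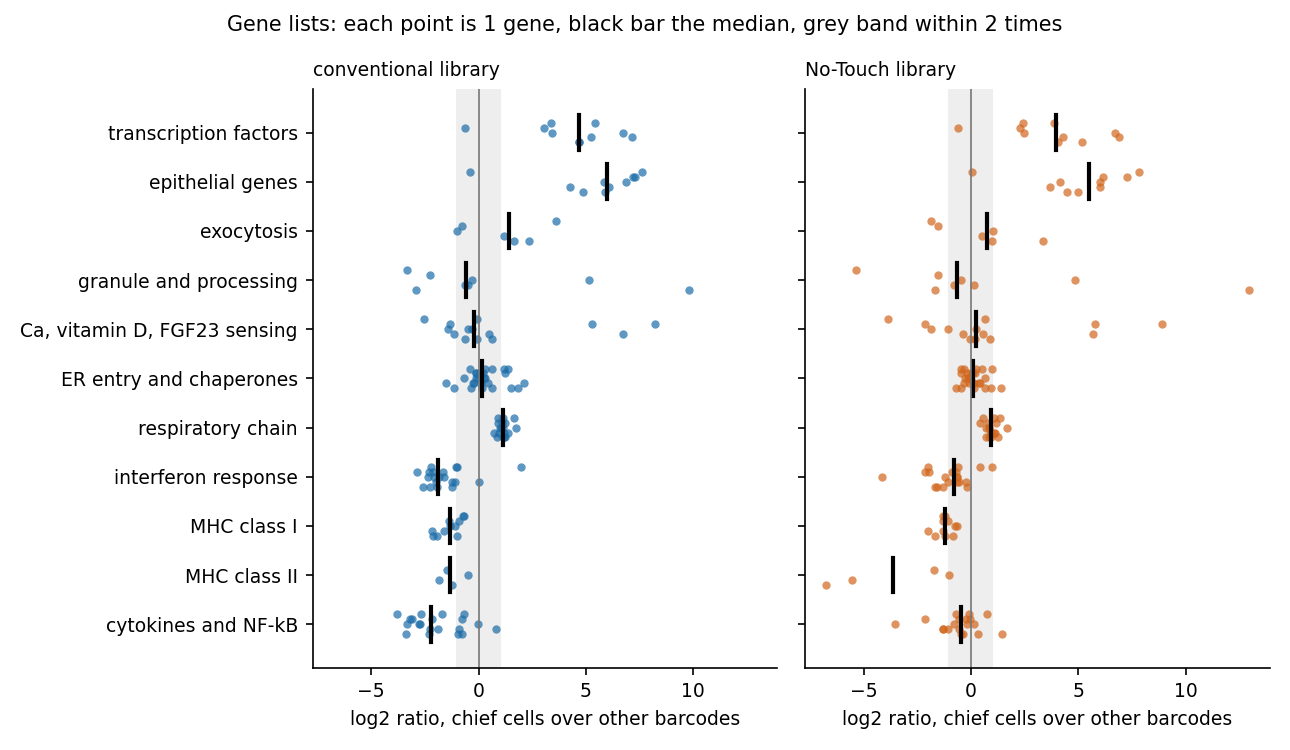
Log2 ratios of the genes of each list in members against the other barcodes of the same library, with each point 1 gene, the black bar the median and the grey band a difference under 2 times. Epithelial genes (5.97 and 5.50) and parathyroid transcription factors (4.69 and 3.97) lie far above 0 in both libraries, and the interferon list lies below (-1.90 and -0.80).

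Markers of the neighbouring glands were at 0 or low in conventional members. Of 9 thyroid follicle markers 6 had no UMI, Tshr, Slc5a5, Pax8, Nkx2-1 and Foxe1 among them, and Tg, the thyroid hormone precursor, stood at 0.703 CPM. Of 6 markers of calcitonin cells 5 had no UMI, Calca among them. Of 8 thymic epithelium markers 5 had UMIs and 3 had none (Foxn1, Aire and Krt5). Their sum was 15.5 CPM in members and 18.5 in the other barcodes, and 38 members lay at or above the latter. Ccl25, a thymic chemokine, stood at 10.9 against 7.23 CPM. Of 7 chromaffin and neuron markers 2 had UMIs, with a sum of 3.87 against 16.4 CPM, and Th, Dbh and Pnmt had none. Of 7 markers of T, NK and B cells 6 had none. In No-Touch members the thyroid, calcitonin cell, thymic and chromaffin lists had no UMI. Of 8 airway and squamous epithelium markers 2 had UMIs in conventional members, with a sum of 14.4 against 2.6 CPM. Scgb1a1, Scgb3a2, Krt4, Krt13, Sftpc and Muc5b had none. Most of that sum was Foxj1, known from ciliated cells, at 14.1 against 0.547 CPM. In No-Touch members 1 of the 8 had UMIs.

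Fibroblast markers varied widely between members. Their 8 genes summed to 26806 CPM in the other conventional barcodes and 43048 in the other No-Touch barcodes. In conventional members the sum ran from 571 to 42396 CPM with a median of 1394. It reached 5000 CPM or more in 12 of 159 (7.55%), the lowest of them at 6979 and the next member below at 4242. These 12 had a median of 34622 UMIs against 18316 in the remaining members, and all 12 were among the highest Scrublet doublet scores, which held 13 members in all. In No-Touch members the sum ran from 1567 to 44534 CPM with a median of 2620. The highest, at 44534 and 18011, belonged to the deepest barcodes, of 90225 and 63698 UMIs, and neither was among the highest doublet scores. The part of doublets in the No-Touch members was not tested further.

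Another 37 conventional barcodes had Epcam and other epithelial genes but no Pth at the limit, and were the most similar cells at hand. They were themselves mixed, with 909 CPM of Krt5 and 388 of Prss16, known from thymic epithelium, 247 of Msln, from mesothelium, and 275 of Muc5b, from airway glands. Against them, at a minimum of 10 CPM, 1503 of 9857 genes (15.2%) were higher and 1630 (16.5%) lower in members. The other epithelial barcodes were picked through UMIs of Epcam, Cdh1, Krt8, Krt18, Krt19 and Cldn7, which belong to the epithelial list. Its values against them are therefore no test, with 0 of 12 higher, 2 lower and a median of -0.51. The 2 lower were Krt7 and Krt19, at 287 and 372 CPM in the other epithelial barcodes. Parathyroid transcription factors gave 4 higher and 2 lower of 11 (median 0.51). Respiratory chain genes were higher in 5 of 18 (0.85). The immune lists stayed lower, 15 of 20 interferon genes with 1 higher (-1.27), 9 of 11 MHC class I genes (-1.27) and all 5 MHC class II genes (-5.15). Cd74, the class II invariant chain, stood at 98.8 CPM in members and 3070 in the other epithelial barcodes.

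Members differed from each other more in some genes than in others. For 1328 genes with at least 300 UMIs in conventional members, the variance between barcodes was divided by that from counting alone. The median was 1.29, and 312 genes exceeded 2 while 66 exceeded 10. At the same relative spread this value rises with a gene's level, so it does not rank genes of unlike level by spread. Between the lower and upper decile Chga ran from 33221 to 67486 CPM, and Casr from 0 to 275. Among the receptors and identity genes, Casr (1.13) lay below the median of 1.29, Gcm2 (1.33) and Vdr (1.49) just above it, and Epcam (1.88), Kl (2.03) and Gata3 (2.87) further above. The highest value was 201 for Cxcl2, a neutrophil attractant, but it was carried by few barcodes. Cxcl2 had a median of 236 CPM and 1359 at the upper decile, while the highest members stood at 42774 and 9947. The nuclear RNA Malat1 gave 181. Chga gave 56.3, Spp1, which encodes osteopontin, 36.1, Tnmd 32.7, Mt3 32, Hspb1, a small heat shock protein, 29, Gnas, which encodes a G protein subunit, 25.9, Krt8 20.5 and Fos 20.1. Matrix genes lost their spread without the 12 fibroblast-rich members, Mgp going from 72.8 to 1.96 and Dcn from 58.1 to 1.44. Over the other 147 members, as a description across cells of 1 library that share depth, Spearman's rho was 0.45 between the Pth share and Chga, 0.56 between Krt8 and Krt18, 0.01 between Pth and the immediate early genes, 0.17 between Pth and the heat shock genes, and -0.12 between Pth and the mitochondrial share.

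For Tnmd most members held either no UMI or a high level. Tnmd (chrX:133850980-133865577, plus strand), which encodes tenomodulin, a membrane protein known from tendon, had no UMI in 106 of 159 conventional members (66.7%) and at least 800 CPM in 32 (20.1%, 14.2 to 27.2), up to 6114. Among the other barcodes 6 of 10299 reached 800 CPM (0.0583%), so the pooled level was 511 against 6.45 CPM. Of the No-Touch members 4 of 6 reached it, at 1389, 2501, 2281 and 3409 CPM, and the remaining ones had none, while 30 of 11519 (0.26%) of the other No-Touch barcodes did. Mt3 was graded, with no UMI in 27 conventional members, at least 800 CPM in 29 (18.2%) and the others spread between. The noncoding transcript of the Rosa26 locus, Gt(ROSA)26Sor (chr6:113067428-113077333, minus strand), was graded as well, and reached 800 CPM in 50 of 159 (31.4%) and in 10.1% of the other conventional barcodes. Whether the mice carry an engineered Rosa26 allele is not given in the labels. These 3 genes and the level of 800 CPM were chosen after their values were seen.

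Conventional members fell into classes by sex-linked transcripts, which were set after the values were seen. Xist (chrX:103460366-103483254, minus strand), the RNA that silences an X chromosome in female cells, was counted without Y-linked UMIs in 37 members (23.3%), at a median of 30 UMIs. Y-linked genes were counted without Xist in 82 (51.6%), at a median of 3 UMIs. Both kinds were counted in 28 (17.6%) and neither in 12 (7.55%). Those with both had medians of 1 Xist UMI and 2.5 Y-linked UMIs, with Xist up to 103 UMIs, and belong to neither the Xist nor the Y class below. The 6 No-Touch members had from 5 to 11 Y-linked UMIs and no Xist. In the other conventional barcodes 1890 had Xist alone, 5996 Y-linked genes alone, 1042 both and 1371 neither. Both kinds of transcript were thus found among conventional chief cells and among the other barcodes of their library.

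Heat shock chaperones were higher in the Xist class than in the Y class. The 20 genes summed to 12561 CPM in the 37 Xist members and 5672 in the 82 Y members. By barcode the medians were 6898 and 5367, the upper quartiles 15120 and 6102 and the highest values 38115 and 12905. The 28 members with both kinds of transcript had a median of 5602 and a highest value of 35949. Of the 37, 31 lay above the Y median and 24 above the Y upper quartile, while 7 of 82 Y members lay above the Xist median, so the classes overlapped. In the other conventional barcodes the same sums were 9157 and 10538 CPM, the opposite order. At a minimum of 10 CPM 271 of 9213 genes (2.94%) were higher and 620 (6.73%) lower in the Xist class. At 50 CPM 34 of 3411 (0.997%) were higher and 106 (3.11%) lower. Of the 20 chaperones 8 were higher and 0 lower, with a median of 0.92, and 10 were higher without the fibroblast-rich members (1.07). The Hsp70 genes Hspa1a (1275 against 242 CPM) and Hspa1b (946 against 174), which are near-identical copies, were 5.26 and 5.41-fold higher. Their cofactors Dnaja4 (285 against 43.5 CPM) and Dnajb1 (715 against 180.3) and the small chaperone Hspb1 (1512 against 386) were higher too. Immediate early genes, which respond quickly to many stimuli, summed to 27025 and 28196 CPM, with 0 of 16 higher and 1 lower. Mt3 (1243 against 351 CPM) and the water channel gene Aqp5 (469 against 127) were also higher. Animal and sex cannot be told apart here.

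Gt(ROSA)26Sor followed the classes in the other direction. It stood at 191 CPM in the Xist class and 953 in the Y class. None of the 37 Xist members reached 800 CPM (highest 484, median 181), while 40 of 82 Y members did (48.8%, median 761, highest 3421). The other conventional barcodes had the same order, with 27 of 1890 Xist barcodes (1.43%) and 750 of 5996 Y barcodes (12.5%) at that level. In the No-Touch library 6 of 11519 other barcodes (0.0521%) reached it, and the No-Touch members, all of the Y class, stood at 17.2, 36.2, 0, 13.2, 0 and 0 CPM. The matrix genes Dcn (331 against 1445 CPM) and Mgp (202 against 1249) were lower in the Xist class, by -2.12 and -2.62 on the log2 scale. Fibroblast-rich members were 0 of 37 Xist and 6 of 82 Y members, and without them these ratios were -0.12 and -0.44, while that of Gt(ROSA)26Sor was -2.41. Tnmd reached 800 CPM in 8 of 37 and 14 of 82.

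**Figure D4:**
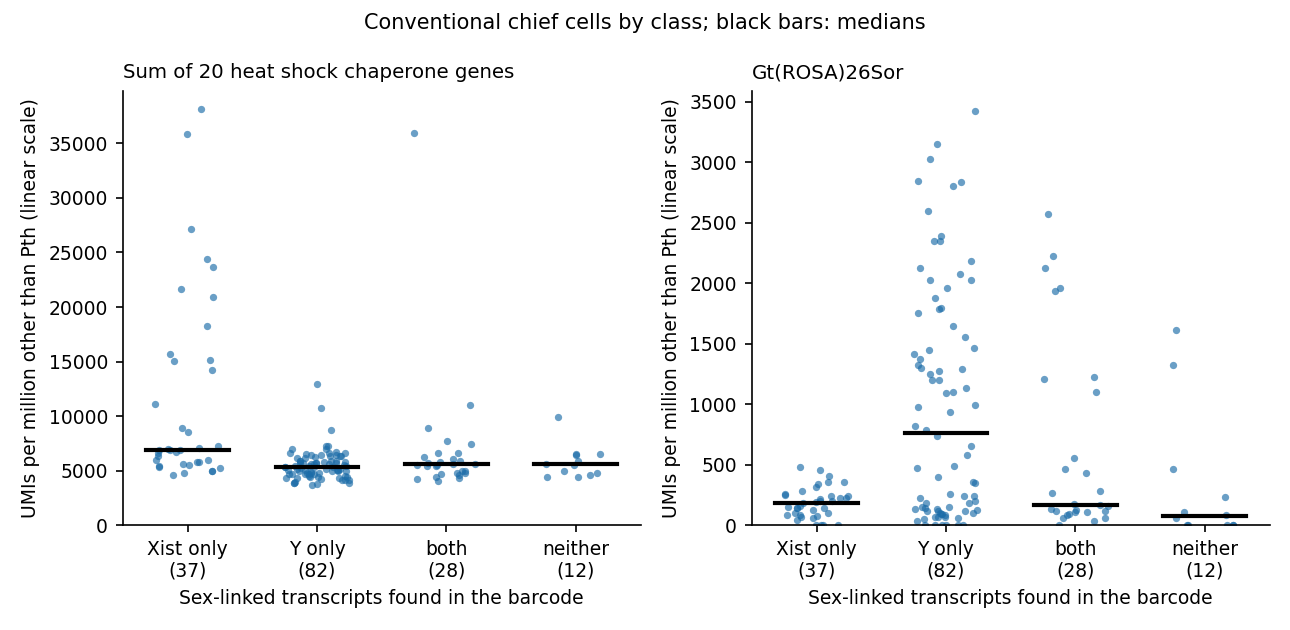
Heat shock sum and Gt(ROSA)26Sor in CPM for each conventional member, by class of sex-linked transcripts, with medians as black bars. The Xist class reaches 38115 CPM of heat shock genes against 12905 in the Y class, and none of its 37 members reaches 800 CPM of Gt(ROSA)26Sor against 40 of 82.

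The remaining comparison asks how chief cells of No-Touch grafts differed from those of conventional grafts, and it rests on 6 barcodes of 1 library, 2 of them rich in fibroblast markers. Genes set out by barcode below were chosen with their values in view. The share of all genes with 6 of 6 on the same side of the conventional median is not given. Counts of 6 of 6, or of conventional members beyond all 6, therefore describe a gene and do not set it apart from others. Of 3738 genes of at least 50 CPM, 451 (12.1%) were higher and 335 (8.96%) lower in No-Touch members, with a median of 0.05. At 10 CPM 1283 of 9580 (13.4%) were higher and 1426 (14.9%) lower. Identity genes overlapped between the libraries. By barcode the median of Chga was 50575 CPM in conventional and 38238 in No-Touch members, that of Gata3 288 and 296, that of Epcam 803 and 863 and that of Kl 469 and 765. Parathyroid transcription factors had 0 of 10 higher and 3 lower (median -0.80), and 0 lower without the rich members (-0.09).

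Simple keratins were lower in No-Touch members. Krt8 stood at 85.8, 579.9, 553, 211, 519 and 883 CPM in the 6 barcodes, against a conventional median of 3414 with a range from 333 to 13958. All 6 lay below that median, and 147 of 159 conventional members lay above the highest of them. The pooled levels were 354 CPM (281 to 439) and 3528, a log2 ratio of -3.32, or -2.63 without the rich members. Krt18 gave -2.49, or -1.63 without them, with 6 of 6 below the conventional median of 2913. The same direction was seen in the 37 other epithelial barcodes of each library, where Krt8 stood at 3254 CPM (conventional) and 859.6 (No-Touch), a ratio of -1.92, and Krt18 at 4175 and 1118, a ratio of -1.90. Those barcodes were picked partly through Krt8 and Krt18 UMIs, so these values are a description and no support. Of those with Y-linked UMIs alone, 4 of 26 (conventional) and 12 of 34 (No-Touch) were fibroblast-rich. The part of this in the keratin levels, and in the other values of these barcodes given below, was not tested.

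The stress genes Herpud1 (median by barcode 497 against 1142 CPM) and Ddit3 (435 against 916), and Npnt and Tmem37, lay below the conventional median in 6 of 6 No-Touch members. In the other epithelial barcodes their log2 ratios, No-Touch over conventional, were -0.63, 0.01, -1.58 and -1.59, in that order. Rsad2 had medians of 6.59 and 143 CPM, with 5 of 6 below. Its values were 343, 36.2, 0, 13.2, 0 and 0, so the single high barcode was a fibroblast-rich one. Rassf4, a Ras-binding protein, stood at 30.2 against 331 CPM (-3.41), with 1 UMI in the 4 members that were not rich, with 3.15 and 3.71 in the other barcodes of each library. Depp1, a target of FOXO factors, had no UMI in the 6 barcodes, which allows up to 15.9 CPM, against 158 in conventional members, and stood at 18.1 and 105 in the other barcodes. Gt(ROSA)26Sor stood at 12.9 against 666 CPM. The regulators Rgs3 (-3.19), Ets1 (-2.81) and Tcim (-2.83) and the clotting initiator F3 (-2.56) were lower as well.

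Fos, an immediate early gene, was higher at 6038, 2972, 2212, 2506, 10115 and 17109 CPM, against a conventional median of 1292. All 6 lay above that median, and 114 conventional members lay below the lowest of them. The log2 ratio was 1.60, and 2.22 without the rich members. The monocyte attractant Ccl7 had medians of 587 and 156 CPM, with 149 conventional members below the lowest No-Touch member. Iigp1 had medians of 277 and 0 CPM, with 6 of 6 above and a ratio of 2.98, or 2.94 without the rich members. Any UMI places a barcode above a median of 0, and the No-Touch members were deeper. In the other epithelial barcodes Iigp1 stood at 398 CPM (No-Touch) and 181 (conventional), while Cxcl10 stood at 414 and 1021. B2m had medians of 636 and 192 CPM, with 5 of 6 above. It stood at 2682 against 918 CPM in the other epithelial barcodes, which also differed in the share that was fibroblast-rich, as given above. Interferon genes were higher in 14 of 20 and lower in 2 (median 1.52), and without the rich members in 9 of 18 with 5 lower (0.89). The barcodes outside members had the same direction, with these 20 genes summing to 7725 CPM (No-Touch) and 5696 (conventional). Cxcl10, an interferon-induced chemokine, shows how much a barcode can weigh. Its pooled level was 1820 against 108 CPM, but it stood at 7033 CPM in the first barcode and at 109, 138, 26.4, 74.1 and 93 in the other 5, and the ratio of 4.07 became 0.48 without the rich members. The 10 highest ratios rested largely on the rich members too. Nrep (4.54), Cxcl9 (4.35), Cav1 (4.15) and Jag1 (3.91) had 1 UMI each in the other 4 barcodes, and Socs1, which dampens cytokine signals (4.10), and the transcription factor Myc (4.09) had 2 each. Medag (3.71) and the hyaluronan synthase Has1 (4.17) had 5 UMIs each there and Col5a3 (3.75) had 6, with ratios of 1.82, 1.50 and 1.42 without the rich members. Fibrillar collagens and matrix genes gave 8 of 10 higher (2.56), and 1 of 10 without the rich members (0.34). Cytokine genes gave 7 higher and 4 lower of 19 (0.29), and 3 higher and 7 lower without them (-0.67), so the direction of that list turned with 2 barcodes. Depth also differed between the members of the libraries, as given above, and its part in these differences was not tested.

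**Figure D5:**
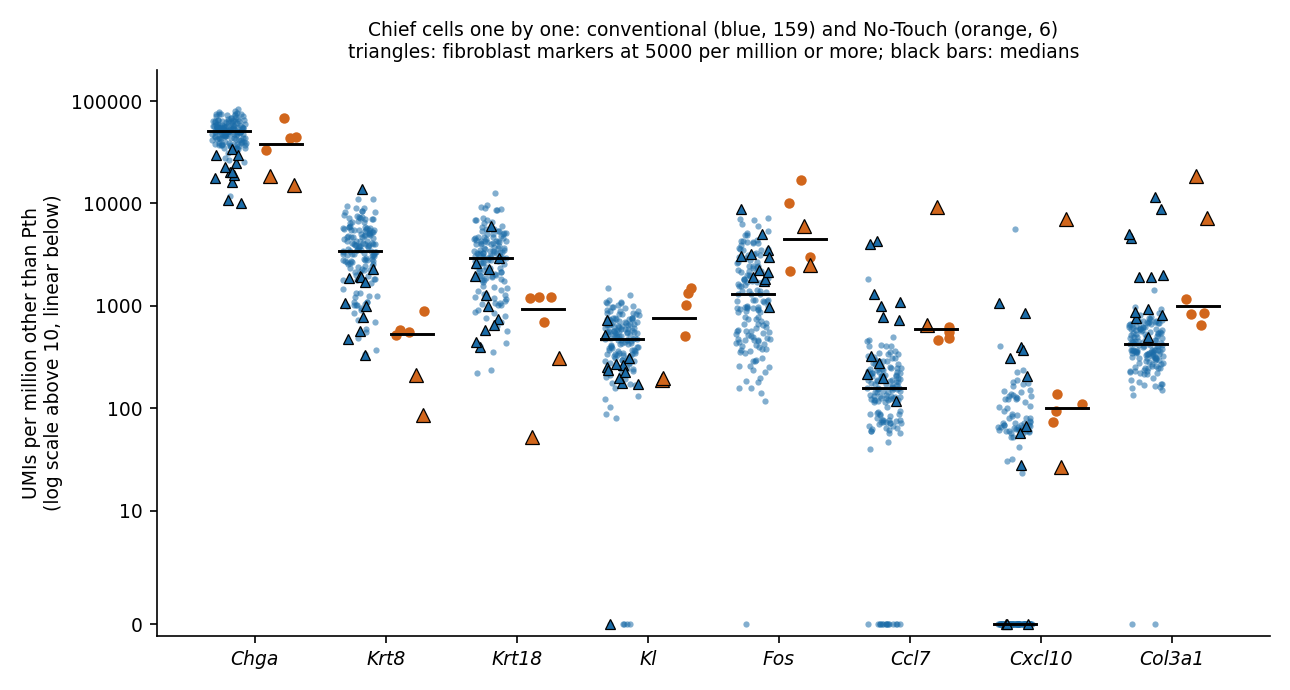
Values of each chief cell barcode for 8 genes, in CPM, by library, with fibroblast-rich members as triangles and medians as black bars. Krt8 of the 6 No-Touch members ends at 883 CPM, below 147 of the 159 conventional members, while Fos of all 6, from 2212 CPM up, lies above 114 of them.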

How the data were processed

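The deposited values are whole-number UMI counts per gene and barcode, 1 matrix per library. The authors counted with Cell Ranger 3.1.0 on mm10 per the submitters' processing notes, while the matrices name Cell Ranger 6.0.0 per the file headers. Strand use was not stated in the labels or headers. Sample titles gave the groups.

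UMIs were summed over barcodes, 40 symbols with several gene IDs were merged, and CPM left Pth out of the totals. Ratios are of CPM + 1. No test was possible with 1 library per group. Intervals are exact Poisson or Clopper-Pearson at 95%, for counting error only. The 8.37% and 9.22% of kept barcodes with the highest Scrublet scores were removed as an alternative. Other epithelial barcodes had Pth under 2%, at least 2 Epcam UMIs and UMIs of at least 2 further epithelial genes.

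Members and lists were chosen with earlier results of these data known. The classes by sex-linked transcripts, the split of heat shock, immediate early and matrix genes, and the fibroblast limit of 5000 CPM were chosen after values were seen. Named genes were the 25 highest ratios in conventional members (at least 100 CPM and a UMI in at least 25% of members), the 10 highest and lowest ratios between libraries, up to 6 per list, and the 10 with the largest share of UMIs in members. Predicted, mitochondrial, ribosomal, haemoglobin and immunoglobulin genes were left out of the first and second. Genes named outside this rule, and those shown by barcode, were chosen with their values in view. Positions are from GENCODE vM21. On simulated counts at the depth of members (2972 genes conventional, 3213 No-Touch), 100% of 4-fold higher genes were recovered in both, and 1.99% of unchanged genes passed 2 times in the No-Touch case. The simulated counts held counting noise around a pooled profile and no spread between barcodes. They therefore do not give how often unchanged genes pass 2 times among the real No-Touch members. Python 3.11.15, numpy 2.4.6, scipy 1.17.1, pandas 2.3.3, scanpy 1.11.5 and matplotlib 3.10.9 were used. Some genes of the lists are not reported here by name.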

Additional observations from a re-analysis of the deposited data

Results flagged for a closer look

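Barcodes outside the limits on genes, UMIs and mitochondrial share were used in no comparison, and some of them held Pth at 2% of UMIs or more. In the conventional library these were 103 of 1441 such barcodes, all with a Chga UMI, with medians of 5.11% Pth, 1695 UMIs, 528 genes and 41.5% mitochondrial UMIs, and 95 of them exceeded 10% mitochondrial UMIs. In the No-Touch library these were 4 of 925, with medians of 3.95% Pth, 3190 UMIs and 5.93% mitochondrial UMIs.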

How the results depend on the processing

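No paired analysis was possible because each group is 1 library. Without limits on barcodes the members numbered 262 and 10. In the order higher and lower, for conventional members against others, No-Touch members against others, No-Touch against conventional members and the Xist against the Y class, a minimum of 10 CPM gave 1832, 1862, 1592, 1637, 1283, 1426, 271 and 620 genes, and a minimum of 100 CPM gave 349, 537, 198, 327, 247, 135, 18 and 47. With Pth in the totals 429 (conventional), 235 (No-Touch) and 22 (Xist class) genes were higher. The 106 genes lower in the Xist class became 30 with high doublet scores removed, 65 with the mean over barcodes and 24 without fibroblast-rich members. Without those, No-Touch members gave 1311 higher and 1059 lower against others. The median of MHC class II genes in the Xist class turned from -1.08 to 0.63 both with high doublet scores removed and without the fibroblast-rich members; the cause was not tested. Among 18 list medians (of at least 3 genes) that lay at least 1 from 0 on the log2 scale, these were the 2 changes of sign. Medians nearer 0 or of fewer genes changed sign as well. For example, without fibroblast-rich members, for No-Touch against conventional members, those of cytokine genes went from 0.29 to -0.67, clock genes from -0.47 to 0.27, exocytosis from -0.52 to 0.21 and cell cycle from -1.68 to 0.51. For No-Touch members against others, granule genes went from -0.63 to 0.26 and growth and tumour genes from -0.56 to 0.69. The 25 leading genes of conventional members and 4 heat shock genes (Hspa1a, Hspa1b, Hspb1 and Dnajb1, Xist against Y class) gave 207 alternative ratios, of which 0 changed sign. These genes were picked for large ratios in the same data, so this count is no test of how stable ratios are. Gene ratios between libraries were recomputed without the fibroblast-rich members, where C3 turned from 0.08 to -1.17 and Cdkn1a had no UMI left. Alternatives for the Xist classes and without fibroblast-rich members were chosen after seeing the data. A gene with no UMI in the 6 No-Touch members may stand at up to 15.9 CPM.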
